A study of Mus musculus with 262 samples.

Results

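Fos, Fosb, Jun, Junb, Egr1, Atf3, Ier2, Dusp1, Hspa1a and Hspa1b are 8 early response genes and 2 heat shock genes whose levels were followed through every RNA table of this mouse kidney series. They were chosen as a list and found by symbol, and all 10 were present in every table. The tables with TPM values hold 47069 genes, and 21187 symbols occur exactly once in each table.

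Immediate early genes are transcribed soon after a stimulus, without the need for new protein, by factors that already wait in the cell. Fos, Fosb, Jun and Junb encode subunits of the transcription factor AP-1, Egr1 encodes a zinc finger transcription factor, Atf3 a stress-induced factor of the ATF/CREB family, Ier2 a small nuclear early response protein, and Dusp1 a phosphatase that switches off MAP kinases and so limits the response. Hspa1a and Hspa1b encode the inducible cytosolic heat shock protein of the Hspa family, a chaperone that binds unfolded proteins. In kidney, as in other tissues, genes of both kinds are known to respond to hormones and injury and also to the cutting, warming and enzyme digestion that release cells from tissue.

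Kidneys of male mice aged 2 months gave the RNA. C57BL/6 mice gave 235 single cells that had been sorted with the lectins DBA or PNA or with an antibody to c-Kit and captured on a microfluidic chip (87 type A intercalated, 23 type B intercalated, 74 principal, 19 proximal tubule and 32 non-epithelial cells, as the authors named them), 2 bulk samples sorted on c-Kit, 2 bulk samples sorted on DBA, and 19 single tubules. The tubules were 11 collecting ducts of the cortex (CCD) and 8 thick ascending limbs of the cortex (cTAL), dissected by hand in a cold solution and moved to Trizol. From the strain Atp6v1b1GFP came 2 GFP-positive and 2 GFP-negative sorted bulk samples. Intercalated cells move acid and base, and principal cells move salt and water. The marker levels below show the c-Kit samples rich in type A and type B and the DBA samples in principal cell RNA. The sources used here do not say how tissue was dissociated before sorting or whether animals were pooled.

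The libraries differed in ways that touch these results. Reads in genes ran from 35530885 to 40815091 in the GFP samples, while the other tables hold TPM values, whose depth is unknown. Between 7621 and 14004 genes reached 1 TPM in a CCD and between 8094 and 12385 in a cTAL, and the CCD tubules headed m2_CCD2, m3_CCD1 and m7_CCD2 had the fewest, 7621, 10323 and 10326. Tubule headers carry a prefix from m1 to m7 whose meaning is not given. If tubules with 1 prefix share an animal, p-values over tubules are too small. Marker levels matched the labels of the tubules and the c-Kit and DBA samples: 7 principal cell markers summed to 25228 to 46542 TPM in CCD and 43.6 to 213 TPM in cTAL, and 5 thick ascending limb markers to 53.5 to 701 TPM and 33613 to 53916 TPM. Type A markers, among them Kit, the gene of the sorted antigen, summed to 3059 and 3097 TPM in the c-Kit samples. In the DBA samples they summed to 61.1 and 73.1 TPM. Type B markers summed to 1616 and 1633 TPM in the c-Kit samples and 159 and 178 TPM in the DBA samples. The 8 macrophage and leukocyte markers (Ptprc, Cd74, C1qa, C1qb, C1qc, Csf1r, Lyz2, Cd68) summed to 4895 and 4990 TPM in the sorted c-Kit cells, to 14394 and 15043 TPM in the sorted DBA cells, and to 62.8 to 686 TPM in the 19 tubules. In bulk samples and tubules, more cells of a type and more RNA per cell cannot be told apart.

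Promoter sequences are shown for the 4 members whose behaviour differed most clearly among the tables: Fos, the most variable member between tubules, Dusp1, the only member called lower in CCD than in cTAL, and Hspa1a and Hspa1b, whose near identity bears on how their reads were divided. Each run is the 250 bases before the RefSeq start in GRCm38.p6, 5′ to 3′, and capitals mark matches to the motifs searched.
Fos, chr12:85473640-85473889, + strand: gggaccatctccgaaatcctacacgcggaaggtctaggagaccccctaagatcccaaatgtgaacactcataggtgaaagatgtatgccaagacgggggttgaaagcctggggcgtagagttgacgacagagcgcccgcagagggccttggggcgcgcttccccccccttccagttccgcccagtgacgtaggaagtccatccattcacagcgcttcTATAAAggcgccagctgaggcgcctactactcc
Dusp1, chr17:26508473-26508722, - strand: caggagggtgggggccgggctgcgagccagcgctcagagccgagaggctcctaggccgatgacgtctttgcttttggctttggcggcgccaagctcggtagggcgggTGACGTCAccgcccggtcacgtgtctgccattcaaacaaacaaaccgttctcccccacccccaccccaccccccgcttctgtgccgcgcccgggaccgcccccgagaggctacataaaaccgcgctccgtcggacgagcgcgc
Hspa1a, chr17:34972157-34972406, - strand: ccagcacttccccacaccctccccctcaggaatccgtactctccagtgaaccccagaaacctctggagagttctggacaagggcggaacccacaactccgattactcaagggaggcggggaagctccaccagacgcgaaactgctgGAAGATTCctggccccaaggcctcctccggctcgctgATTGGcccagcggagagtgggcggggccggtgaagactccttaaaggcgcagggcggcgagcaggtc
Hspa1b, chr17:34959239-34959488, - strand: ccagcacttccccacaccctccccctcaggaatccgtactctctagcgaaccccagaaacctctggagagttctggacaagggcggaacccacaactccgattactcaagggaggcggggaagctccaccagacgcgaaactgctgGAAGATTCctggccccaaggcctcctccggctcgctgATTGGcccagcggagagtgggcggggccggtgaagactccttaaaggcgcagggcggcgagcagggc
The capitals in Fos are a TATA box (TATAAA, bases -33 to -28 from the start), and those in Dusp1 are a cyclic AMP response element (TGACGTCA, bases -143 to -136). Those in Hspa1a and Hspa1b are a heat shock element (GAANNTTC or TTCNNGAA, here GAAGATTC at bases -104 to -97) and an inverted CCAAT box (CCAAT on the other strand, bases -67 to -63). The runs of Hspa1a and Hspa1b have the same letter at 247 of 250 positions, 98.8%. Sequences matched 8 of the 10 members (all but Egr1 and Ier2), and both strands were searched in all 27025 promoters of the same length. The heat shock element occurred in 12.9% of them and in 3 of the 8 members, which were Jun, Hspa1a and Hspa1b. The cyclic AMP response element occurred in 1.62% and in Dusp1 alone among the 8, TATAAA in 13.0% and in Fos alone, and CCAAT in 34.5% and in Jun, Junb, Hspa1a and Hspa1b. The AP-1 site (TGANTCA) and the CArG box matched none of the 8 and 6.87% and 1.40% of all promoters, and the EGR site (GCGNGGGCG) matched Fosb and 4.65%. A match is a description of these letters and says nothing of binding. The transcripts are also alike: of 2918 words of 50 bases in Hspa1a transcripts, 1716 (58.8%) occur in Hspa1b, so the split of reads between these neighbouring genes (chr17:34969190-34972156 and chr17:34956436-34959238 in GRCm38, both on the - strand) is uncertain.

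The members ranked near the top of the transcriptome in sorted cells and lower in dissected tubules. Within each sample a gene's percentile was taken among the 21187 shared symbols, so that 100 would be the highest gene. The median percentile over the 10 members was 97.4 and 97.5 in the c-Kit samples, 99.39 and 99.40 in the DBA samples, 95.5 and 97.4 in the GFP-negative samples and 96.5 and 97.1 in the GFP-positive samples. In the 11 CCD it ran from 67.5 to 87.6 with a median of 77.7, and in the 8 cTAL from 64.0 to 79.4 with a median of 71.4. All 8 sorted samples therefore lay above all 19 tubules in this median. Summed, the 10 members took 0.331% and 0.336% of all TPM in the c-Kit samples and 0.921% and 0.979% in the DBA samples, against 0.0222% to 0.103% in CCD and 0.00988% to 0.0346% in cTAL.

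Per gene, Jun, Egr1, Atf3, Dusp1 and Hspa1a ranked higher in every one of the 8 sorted bulk samples than in any of the 19 tubules, 5 of 10 members against 0.732% of all 21187 genes. Among the 35 other early response genes of a list, 5 did so. In the same comparison it was 1 of 20 other heat shock and chaperone genes, 1 of 12 endoplasmic reticulum stress genes and 0 of 10 reference genes. The reference genes had little room to rise, so their 0 shows little. Their median percentile was already 96.1 to 97.4 in CCD and 96.1 to 96.9 in cTAL. It was 86.8 and 86.9 in the GFP-negative and 81.9 and 82.8 in the GFP-positive samples. In the 4 GFP samples 6 of 10 reference genes ranked below all 11 CCD. Without the 3 CCD tubules of fewest genes, Fos joined the 5 members named above (6 of 10 members, 0.906% of all genes). These tables were made separately, and preparation, sort, amount of RNA, annotation and table cannot be told apart, so no test was made across them.

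Against the collecting ducts alone, the c-Kit and DBA samples stood apart in 9 of 10 members, all but Fosb, with 4.24% of all genes doing the same. Fos was at percentile 99.42 and 99.46 in the c-Kit samples and 99.93 and 99.94 in the DBA samples. In CCD it ran from 41.6 to 96.5 with a median of 67.8, so that even the highest tubule lay below the lowest sorted sample. Egr1 ran from 56.7 to 95.3 in CCD, with a median of 80.0, and was at 97.4 or above in the 4 sorted samples. Hspa1b, the chaperone gene, ran from 80.9 to 87.9 in CCD, with a median of 84.8, and was at 95.2 to 97.5 in the sorted samples. Fosb was the exception because the c-Kit samples, at 57.1 and 59.8, sat near the highest CCD at 57.4. Against the cTAL tubules the count was again 9 of 10, all but Fosb, beside 8.06% of all genes. The 8 macrophage and leukocyte markers ranked higher in all 4 c-Kit and DBA samples than in all 11 CCD in 8 of 8 cases, and their part in the result was not tested.

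**Figure D1:**
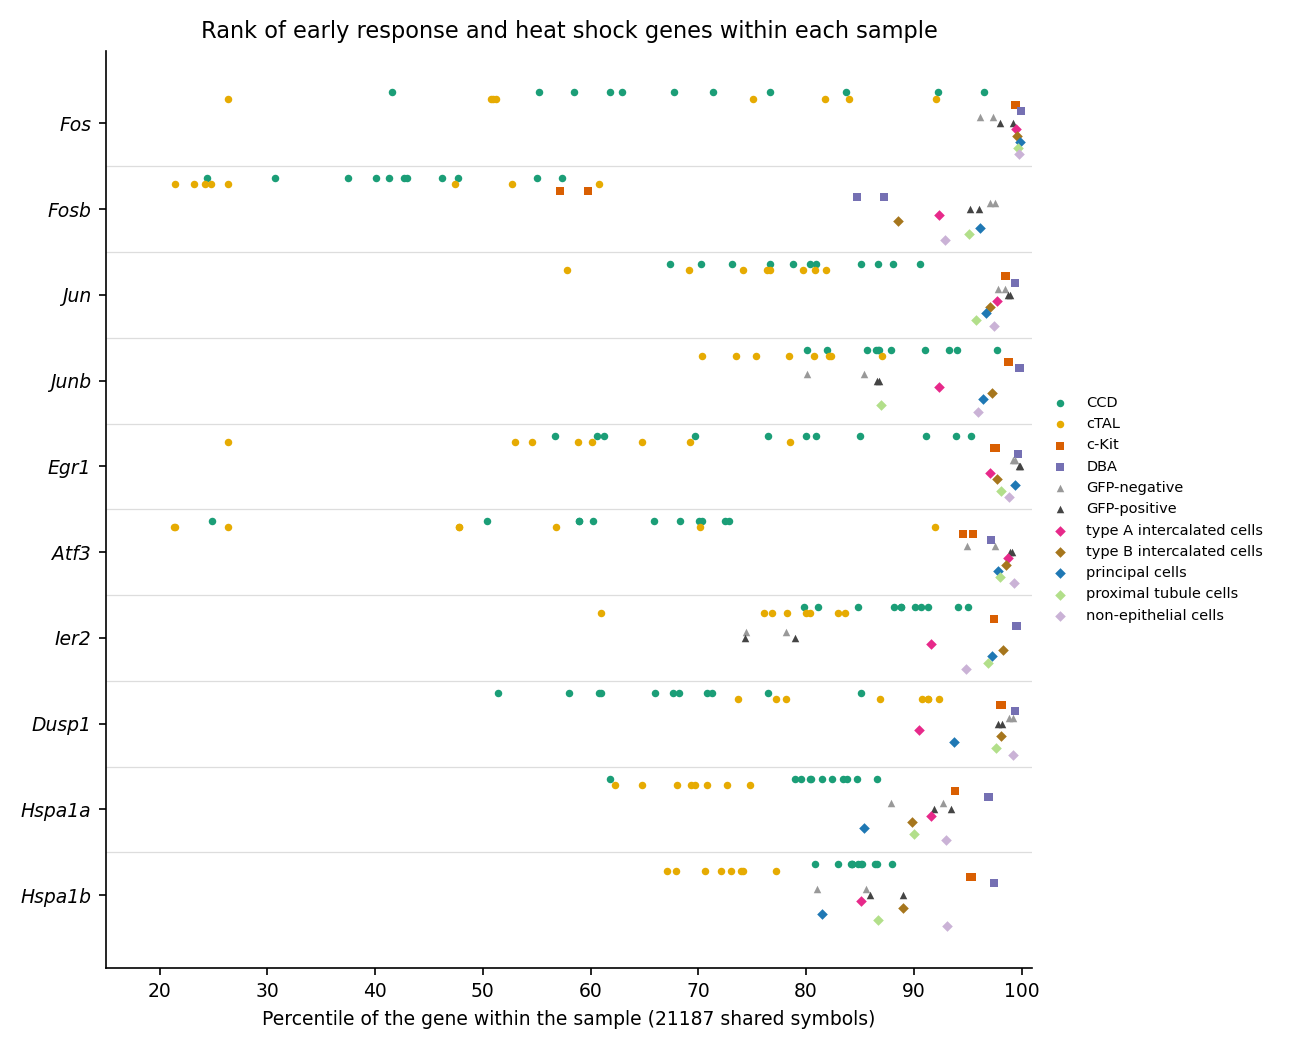
Percentile of each of the 10 genes (rows) within each sample, among 21187 shared symbols, with 1 point per tubule or bulk sample and 1 point per single-cell type (the profile averaged over its cells); GFP samples are ranked on CPM, the rest on TPM. The sorted and single-cell points crowd towards the right edge, while Fos spreads from 26.3 to 96.5 over the tubules.

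In the single-cell types 5 of the early response genes also ranked above all tubules, while Junb, Ier2 and the heat shock pair did not rank above all CCD. In profiles averaged over the cells of a type, the median percentile over members was lowest in type A cells, at 92.4. It was 97.5 for type B, 96.6 for principal, 96.4 for proximal tubule and 96.7 for non-epithelial cells. Fos, Fosb, Jun, Egr1 and Atf3 ranked higher in all 5 types than in all 19 tubules, 5 of 10 members beside 1.61% of all genes. With the median over single cells in place of the averaged profile it was 3 of 10 members. The share of all genes was not computed with that median, so the 1.61% is not its reference. Type A, type B and principal cells ranked above all 11 CCD in 6 members, the same 5 and Dusp1, beside 4.35% of all genes. Hspa1b did not separate: its percentile was 85.1 in type A, 89.0 in type B and 81.4 in principal cells, within or just above the CCD range of 80.9 to 87.9. None of the 8 macrophage and leukocyte markers ranked above all CCD in these 3 cell types. Their summed mean was 131 TPM for type A, 2.62 TPM for type B and 136 TPM for principal cells, against 108 to 584 TPM in the CCD tubules. Reference genes were not free of the shift, since Actb, Ywhaz and Rpl13a also ranked above all CCD in the 3 cell types (3 of 10).

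In the GFP samples, which were ranked on CPM (reads of a gene scaled to the library's total) and so not per length, Fosb, Jun, Egr1, Atf3, Dusp1 and Hspa1a ranked above all 11 CCD (6 of 10, beside 15.8% of all genes), and Ier2 ranked below all of them. Ier2 was at 74.3 to 79.0 by CPM, against 79.8 to 94.99 in CCD, but at 86.6 to 91.3 by the authors' RPKM, which divides by length. By RPKM Ier2 overlapped the CCD. Fos was at 96.18 to 99.24 by CPM and at 96.56 to 99.34 by RPKM, against 96.50 in the highest tubule. By RPKM Fos thus ranked just above all tubules in every sorted bulk sample, with no tubule left out.

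Between the sorted bulk samples, all 10 members were lower in c-Kit than in DBA cells. Fosb fell furthest, followed by Egr1, and the stress factor Atf3 and the chaperone genes moved least. Here and below, a gene was called at a Benjamini-Hochberg adjusted p under 0.05 over all genes tested, and log2 differences are on the log2(TPM + 1) scale from limma. Of 14341 genes tested, 44.3% were called and 28.1% were called lower, so 10 of 10 members lower stands against that share. The median log2 difference was -1.41 over the members and -0.11 over all genes.

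Fos was at 1030 and 1005 TPM in the c-Kit samples and at 2974 and 2838 TPM in the DBA samples. It fell by 1.51 ± 0.06 (SE) on the log2 scale, with an adjusted p of 9.96e-06 from limma. Each group's replicates lay far closer to one another than to the other group. Fosb, another Fos family gene, was at 9.28 and 7.11 TPM in c-Kit and at 56.4 and 67.4 TPM in DBA. It fell by 2.78 ± 0.15 (SE, limma adjusted p 3.0e-05), the largest difference among the 10.

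The partners of Fos in AP-1 also fell. Junb was at 522 and 488 TPM in c-Kit against 1867 and 1641 TPM in DBA, a log2 difference of -1.79 ± 0.08 (SE, limma adjusted p 1.5e-05). Jun, the other Jun protein gene listed, was at 436 and 443 TPM against 872 and 816 TPM and fell by 0.94. The pair thus differed in size, and so did the zinc finger gene Egr1, at 293 and 269 TPM against 1395 and 1282 TPM, which fell by 2.25 ± 0.07 (SE, limma adjusted p 5.1e-06). Ier2 was at 284 and 270 TPM against 1006 and 934 TPM and fell by 1.80. The phosphatase gene Dusp1 was at 343 and 367 TPM against 877 and 880 TPM and fell by 1.304. Neither group overlapped the other in these genes. Atf3 was at 146 and 170 TPM against 245 and 247 TPM and fell by 0.64, the smallest difference. Hspa1a was at 131 and 132 TPM against 233 and 235 TPM and fell by 0.82, and Hspa1b was at 167 and 161 TPM against 268 and 268 TPM and fell by 0.71.

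Of 35 other early response genes, 32 were tested, 26 were lower and 1 was higher in c-Kit cells, with a median log2 difference of -0.98. Nfkbiz, an inhibitor of NF-kappaB family members, fell by 2.20 from a DBA mean of 114 TPM. Zfp36, which destabilises messenger RNAs, fell by 1.87 from a DBA mean of 1469 TPM. Ier5 fell by 1.62. Gadd45g, a growth arrest gene, was the 1 that rose, by 0.24, and its call was lost without the variance trend (limma adjusted p 0.12). The other heat shock and chaperone genes did not follow: of 19 tested, 10 were higher and 4 lower. Hsph1, Hspe1 and Chordc1, all chaperones or their partners, rose by 0.67, 0.60 and 0.54, while the small heat shock gene Cryab fell by 1.14, Dnajb4 by 0.83 and Dnajb1 by 0.49. Among 12 endoplasmic reticulum stress genes, 0 were higher and 1 was lower (Atf4, by 0.22). Of 15 upstream factors and kinases, 2 were higher and 5 lower; Srf, which drives early genes through the CArG box, fell by 0.59 and the kinase gene Mapk14 by 0.80.

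Beside these differences stand those of cell type markers in the same fit. Principal cell markers were lower in c-Kit cells in 7 of 7 cases and macrophage and leukocyte markers in 7 of 8. Proximal tubule markers were lower in 5 of 7, while type A and type B markers were higher in 4 of 4 each. Markers of mast cells, which c-Kit can also select, and of plasma cells were higher in 4 of 4 tested. The 5 listed summed to 206 and 275 TPM in c-Kit against 1.06 and 13.5 TPM in DBA. The part of these cells in the members' differences was not tested.

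Between GFP-positive and GFP-negative cells the members split. By edgeR's quasi-likelihood test on counts, Fos, Egr1 and Atf3 were higher in GFP-positive cells, Fosb and Dusp1 were lower, and Jun, Junb, Ier2, Hspa1a and Hspa1b were not called. Of 15671 genes tested 32.6% were called, 15.2% higher and 17.3% lower, and the 3 and 2 of 10 members stand against those shares. The GFP strain marks Atp6v1b1, a proton pump subunit gene, and intercalated markers were higher in GFP-positive cells in all 13 of the type A, type B and shared markers listed.

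Egr1 was at 709 and 581 CPM in the GFP-negative samples and at 1049 and 1447 in the GFP-positive samples. It rose by 0.87 ± 0.22 (log2, SE; edgeR adjusted p 0.017). Atf3 was at 299 and 159 against 533 and 445 CPM and rose by 1.03 ± 0.24 (SE, edgeR adjusted p 0.012). In both genes the groups did not overlap, but the GFP-negative replicates were themselves 1.22 and 1.88 times apart. Fos was at 286 and 199 against 336 and 573 CPM and rose by 0.84, with an edgeR adjusted p of 0.043. Dusp1 moved the other way, from 587 and 461 to 321 and 338 CPM, and fell by 0.75 ± 0.17 (SE, edgeR adjusted p 0.012). Fosb was at 298 and 240 against 186 and 209 CPM and fell by 0.53 (edgeR adjusted p 0.044).

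These calls depended on the samples kept. Leaving out a sample left 1 sample in a group. The weight of that sample therefore cannot be told apart from the smaller number of samples. The called members kept their direction in each of these fits. Without GFP-negative replicate 2, 0 members were higher and 1 was lower; without GFP-negative replicate 1, 3 were higher and 0 lower; without GFP-positive replicate 1, 3 and 1; and without GFP-positive replicate 2, 1 and 2. By limma on the authors' RPKM, 0 were higher and 1, Dusp1, was lower. The macrophage and leukocyte markers were lower in GFP-positive cells in 8 of 8 cases and proximal tubule markers in 7 of 7. Principal cell markers were higher in 6 of 7 and distal convoluted and connecting tubule markers in 4 of 4. The part of these cells in the members' differences was not tested. Among 34 other early response genes tested, 5 were higher and 11 lower; Gadd45b rose by 1.25, Nr4a1 by 1.00 and Klf6 by 0.99, while Plk3, Errfi1 and Klf4 fell by 2.503, 2.32 and 2.29. Of 20 other heat shock and chaperone genes, 2 were higher (Hspa4 by 0.85 and Dnajb1 by 0.62) and 4 lower, among them Hspe1, Hspd1 and Hspa8, which fell by 1.62, 1.02 and 0.84.

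**Figure D2:**
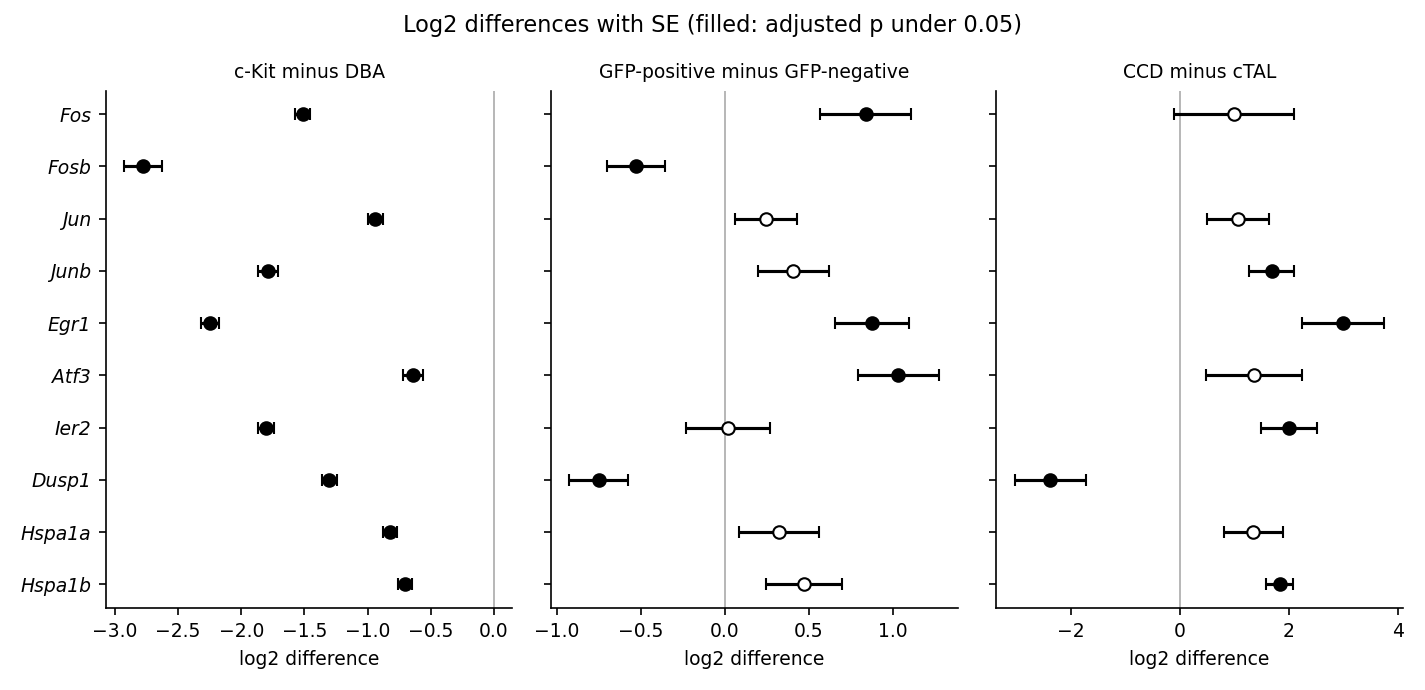
Log2 differences of each member with standard errors for c-Kit minus DBA, GFP-positive minus GFP-negative and CCD minus cTAL; filled points were called at an adjusted p under 0.05, and the horizontal scales differ. All 10 points lie left of 0 in the first panel, and Dusp1 is the only filled point left of 0 in the last.

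Among tubules, 4 members were higher in CCD than in cTAL and 1 was lower. Egr1 rose by 3.00, Ier2 by 2.01, Hspa1b by 1.83 and Junb by 1.69 on the log2(TPM + 1) scale, and Dusp1 fell by 2.37. Fosb was under the filter of a mean of 1 TPM, so 9 members were tested, and Fos, Jun, Atf3 and Hspa1a were not called. Of 13520 genes tested, 18.7% were called, 13.2% higher and 5.5% lower. The median log2 difference was 1.36 over the 9 members and 0.31 over all genes, and differences of this comparison are best read against that 0.31. The macrophage and leukocyte markers were called in neither direction (0 of 8). The share of TPM from mitochondrial genes was 2.66% to 4.51% in CCD and 4.91% to 8.21% in cTAL, without overlap, and the median number of genes at 1 TPM was 12282 and 10729.5. Their part in the members' differences was not tested.

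Hspa1b was the steadiest member in CCD. It ran from 34.8 to 71.3 TPM in CCD, with a median of 48.9, and from 7.17 to 21.6 TPM in cTAL, with a median of 12.5. Every CCD lay above every cTAL, and the difference was 1.83 ± 0.24 (SE, limma adjusted p 4.3e-06). Its spread over the CCD, an SD of 0.28 on the log2 scale, was at percentile 7.18 of the 8039 genes that averaged 10 TPM or more. In cTAL its SD was 0.49, above the 0.42 of Hspa1a.

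Hspa1a followed it in 10 of 11 CCD. It ran from 0.12 to 54.7 TPM in CCD, with a median of 35.3, and from 5.83 to 17.4 TPM in cTAL, with a median of 10.0. The value of 0.12 TPM was that of m2_CCD2, where Hspa1b had its highest value of 71.3 TPM. The difference of Hspa1a was 1.35 ± 0.55 (SE, limma adjusted p 0.094), and without m2_CCD2 it was 1.82 (limma adjusted p 3.3e-06). The 2 genes summed gave 1.77, with a limma adjusted p of 5.34e-08.

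Ier2 was the other member whose groups did not overlap. It ran from 34.7 to 157 TPM in CCD, with a median of 70.5, and from 0.08 to 33.8 TPM in cTAL, with a median of 25.6, and the limma adjusted p was 0.0067. Junb ran from 33.7 to 314 TPM in CCD, with a median of 57.2, and from 5.60 to 49.1 TPM in cTAL, with a median of 24.9 (limma adjusted p 0.0044). In Junb 8 of 11 CCD lay above every cTAL. Egr1 ran from 4.55 to 164 TPM in CCD, with a median of 25.0, and from 0 to 24.5 TPM in cTAL, with a median of 2.51 (limma adjusted p 0.0058). Egr1 reached 1 TPM in all 11 CCD and in 4 of 8 cTAL.

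Dusp1 went the other way. It ran from 0.02 to 47.3 TPM in CCD, with a median of 9.67, and from 15.9 to 93.8 TPM in cTAL, with a median of 64.0, a difference of -2.37 ± 0.66 (SE, limma adjusted p 0.012). In 5 of 8 cTAL it was above every CCD, and the lowest CCD values, 0.02 and 0.06 TPM, were those of m7_CCD2 and m2_CCD2. The call held without the 3 CCD of fewest genes (-1.48, limma adjusted p 0.020) and was lost without the tubules of prefix m7 (-1.94, limma adjusted p 0.065) and in a paired fit of means per prefix (-2.77, limma adjusted p 0.073). Within prefixes, over the 6 that hold both kinds of tubule, mean log2 levels of Junb, Egr1, Ier2 and Hspa1b were higher in CCD in 6 of 6, and that of Dusp1 in 1 of 6.

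Fos, which was not called, was the most uneven member in both kinds of tubule. It ran from 0.02 to 218 TPM in CCD, with a median of 8.75, and from 0 to 85.2 TPM in cTAL, with a median of 8.91 (difference 1.00 ± 1.10 SE, limma adjusted p 0.60). Its highest CCD values were 218 and 103 TPM, in the pair of CCD tubules of prefix m7, and its highest cTAL value was also in a tubule of prefix m7. The SD of Fos on the log2 scale, 2.46 in CCD and 2.84 in cTAL, was at percentile 99.8 of such genes in each. Atf3 ran from 0 to 18.1 TPM in CCD and was under 1 TPM in the 3 tubules of fewest genes. In cTAL it was under 1 TPM in 6 of 8 tubules and reached 92.8 TPM in m2_cTAL1. Without those 3 CCD Atf3 was called higher in CCD (2.34, limma adjusted p 0.043), as was Hspa1a, which made 6 members higher. That setting removes tubules from the CCD alone and keeps m1_cTAL1, m2_cTAL1 and m3_cTAL1, which had 9078, 9683 and 8094 genes. Jun ran from 7.21 to 83.5 TPM in CCD and from 0.07 to 30.4 TPM in cTAL (1.07, limma adjusted p 0.22). Fosb did not exceed 1.40 TPM in any tubule.

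**Figure D3:**
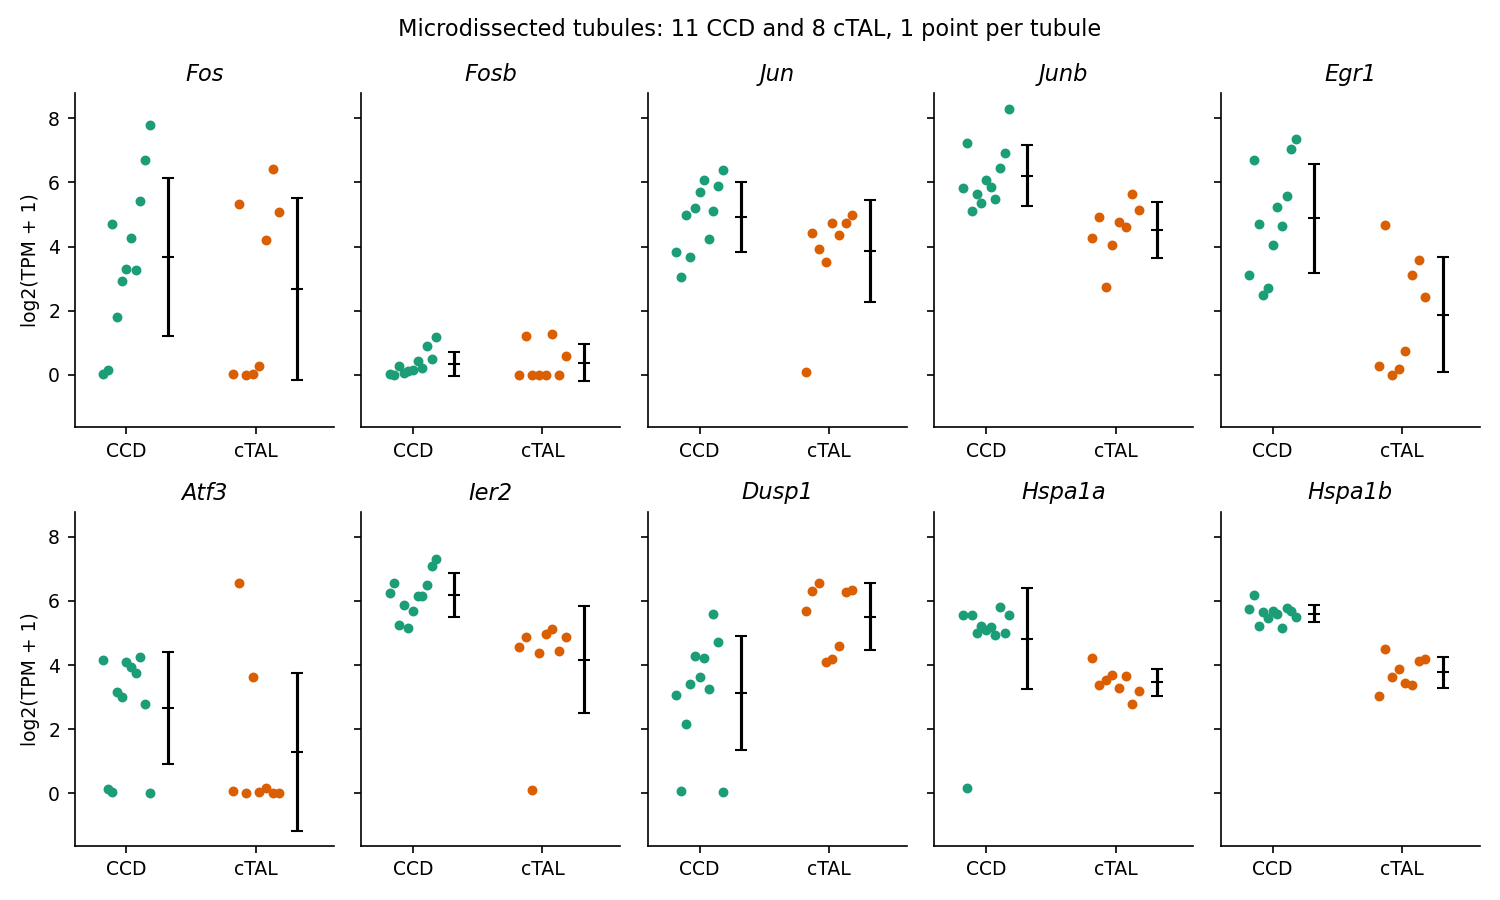
Level of each member in 11 CCD and 8 cTAL tubules as log2(TPM + 1), 1 point per tubule, with the mean and SD as black bars beside the points. Ier2 and Hspa1b are the members with no overlap between groups, Dusp1 is higher in cTAL, and Fos covers 0.02 to 218 TPM within CCD.

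Other genes of the same pathways were uneven between the segments. Of 24 other early response genes tested, 6 were higher and 3 lower in CCD. Dusp6, a phosphatase that acts on ERK and so has a role like that of Dusp1, fell by 4.28, from a cTAL mean of 93.4 TPM to a CCD mean of 4.69 TPM. Gadd45g fell by 2.67. Of 20 other heat shock and chaperone genes 8 were higher and 0 lower, and Cryab rose by 2.69, from a cTAL mean of 75.5 TPM to a CCD mean of 436 TPM. Of 12 endoplasmic reticulum stress genes 0 were higher and 1 was lower, and of 15 upstream factors and kinases 1 was higher and 0 were lower.

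Fosb and Jun varied with Fos from CCD to CCD, and the heat shock genes did not pass the test. Relations of Fos with the 9 other members were computed on the log2(TPM + 1) scale in CCD and in cTAL, 18 in all, with permutation p-values adjusted by Benjamini-Hochberg over the 18. In CCD those of Fos with Fosb (n = 11, r = 0.86, adjusted p 0.0040; rho = 0.96, adjusted p 0.00036) and Jun (r = 0.85, adjusted p 0.010; rho = 0.78, adjusted p 0.029) passed. Fosb was at 0 to 1.24 TPM in these tubules and under 1 TPM in 10 of 11, so its relation lies near the floor of the table. Without m7_CCD1 and m7_CCD2, the tubules farthest from the median of Fos, r was 0.81 and 0.77. For Egr1 in CCD, r fell from 0.59 (permutation, adjusted p 0.18) to 0.19 without the m7 tubules. Its rho fell from 0.68 (permutation, adjusted p 0.091) to 0.42. For Junb in CCD, r went from 0.42 to -0.34 and rho from 0.35 to -0.05. Neither relation passed, and r in both depended on these 2 tubules. Hspa1b had r = -0.40 in CCD (permutation, adjusted p 0.30). In cTAL the tubules fall into a cluster of 4 with Fos at 0 to 0.22 TPM and a cluster of 4 with Fos at 17.6 to 85.2 TPM, so no pooled r is given and the relation cannot be tested within either. Across both clusters the relation of Fos with Egr1 passed by r and rho, and that with Junb by rho. Egr1 was at 0, 0.14, 0.21 and 0.68 TPM in the first 4 and at 4.34, 7.64, 11.0 and 24.5 TPM in the others.

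**Figure D4:**
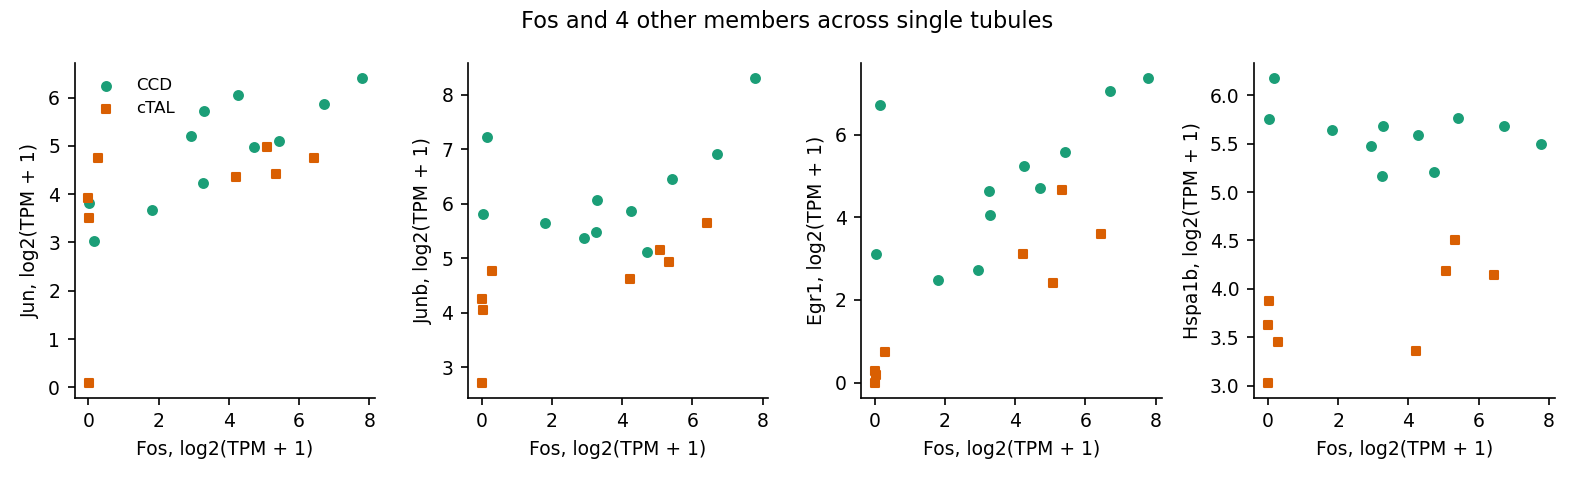
Fos on the horizontal axis against Jun, Junb, Egr1 and Hspa1b on the vertical axes, all as log2(TPM + 1), 1 point per tubule (11 CCD as circles, 8 cTAL as squares). Jun climbs with Fos in CCD, and in cTAL 4 of 8 tubules sit at the left edge with Fos under 1 TPM. Hspa1b stays between 34.8 and 71.3 TPM in CCD across the range of Fos.

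In single cells the members were widely detected and very uneven. No animal is named for a cell, so each type is 1 sample and no test was made; intervals cover counting error only. Fos, at 1 TPM or more, was found in 87 of 87 type A cells (exact 95% interval 95.8% to 100%), 19 of 23 type B cells (61.2% to 95.05%), 70 of 74 principal cells (86.7% to 98.5%), 18 of 19 proximal tubule cells (74.0% to 99.9%) and 32 of 32 non-epithelial cells (89.1% to 100%). In type A cells 8 of 10 members reached 1 TPM in at least 50% of cells, beside 3.2% of the 47069 genes. In type B cells it was 7 members (3.68% of genes), in principal cells 10 (3.43%), in proximal tubule cells 9 (4.05%) and in non-epithelial cells 10 (3.42%). In non-epithelial cells 8 of 8 macrophage and leukocyte markers reached the same mark, with a summed mean of 41698 TPM. With the mark raised to 10 TPM, 4 of 10 members were found in at least 50% of type A cells. The share of all genes at 10 TPM was not computed. The cells named proximal tubule held more summed principal cell than proximal tubule markers by the mean, 2224 against 1315 TPM, and fewer by the median over cells, 157 against 1496 TPM.

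Fos had its highest mean in principal cells, at 1870 TPM with a median of 1720 TPM, and its lowest mean in type A cells, at 871 TPM with a median of 467 TPM. By the median type B cells were lowest, at 120 TPM. Egr1 had the same order at those ends, with a mean of 815 TPM (median 475) in principal cells and 195 TPM (median 21.0) in type A cells, and its lowest median, 12.5 TPM, in type B cells. Fosb, too, was highest in principal cells, at a mean of 168 TPM, with 64 of 74 cells at 1 TPM or more against 44 of 87 type A cells. All 3 genes were also lower in the c-Kit than in the DBA bulk samples, but so were all 10 members. Among these, Atf3, Hspa1a and Hspa1b had their lowest single-cell means in principal cells, and Jun its highest in type A cells. Dusp1 was highest in non-epithelial cells, at a mean of 660 TPM and a median of 636 TPM. Its lowest mean was in type A cells, at 56.9 TPM with a median of 1.53 TPM, and its lowest median in type B cells, at 0.92 TPM. It was at a mean of 105 TPM and a median of 6.46 TPM in principal cells. Atf3 was likewise highest in non-epithelial cells, with a mean of 768 TPM and a median of 368 TPM, while its medians in the epithelial types were 1.19 to 23.9 TPM. Hspa1a and Hspa1b were highest in non-epithelial cells, at means of 86.4 and 88.4 TPM, and lowest in principal cells, at 39.1 and 27.5 TPM.

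For Jun, Junb and Ier2, the type with the highest level depended on the summary. Jun had means of 148 to 250 TPM in the 5 types, highest in type A cells by the mean and in non-epithelial cells by the median. Junb and Ier2 had their highest means in type B cells, at 205 and 341 TPM, but their medians there were 6.47 and 0.75 TPM, below those in principal cells, at 87.6 and 84.8 TPM. Ier2 reached 2930 TPM in its highest type B cell, and Junb reached 1102 TPM.

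Type B cells left the widest gap in Fos among the collecting duct types. Fos was at 14.6 TPM or less in 11 of 23 cells and at 120 TPM or more in the other 12, with no cell between. Non-epithelial cells had a gap too, from 10.8 to 104 TPM, with 2 of 32 cells below it. Counting members at 1 TPM or more, 11 cells had 3 or fewer and 12 had 6 or more, and no cell had 4 or 5. In type A cells 8 of 87 had 3 or fewer and 63 had 6 or more, and 16 lay between. In principal cells 6 of 74 had 3 or fewer and 67 had 6 or more. By the labels, 17 of the 23 type B cells were sorted with PNA, 4 with c-Kit and 2 with DBA or DBA and c-Kit together, whereas no cell of another type was sorted with PNA. The columns of the table are not tied to these labels, so whether the gap follows the sort was not tested. Type B cells with fewer members at 1 TPM also tended to have fewer genes at 1 TPM (rho 0.61). The part of the number of genes in the gap was not tested.

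How far the members varied together from cell to cell differed between types. Over the 45 pairs of members, the median Spearman rho across cells was 0.72 in type B (n = 23), 0.59 in proximal tubule (n = 19), 0.42 in type A (n = 87), 0.21 in non-epithelial (n = 32) and 0.19 in principal cells (n = 74). Between Fos and Egr1, rho was 0.95 in type B, 0.60 in principal, 0.49 in type A and 0.17 in non-epithelial cells. Between Fos and Hspa1b it was 0.51 in type B, 0.19 in principal, -0.05 in type A and -0.25 in non-epithelial cells. All 45 pairs had a rho above 0 in type B, and 34 of 45 did in non-epithelial cells. The cells also differed in how many genes were found: rho between the number of members at 1 TPM and the number of genes at 1 TPM was 0.49 to 0.61 in the 5 types. The summed level of the members had rho of 0.15 to 0.48 with the number of genes, and of -0.56 to -0.35 with the share of TPM from mitochondrial genes. Their part in the pattern was not tested.

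**Figure D5:**
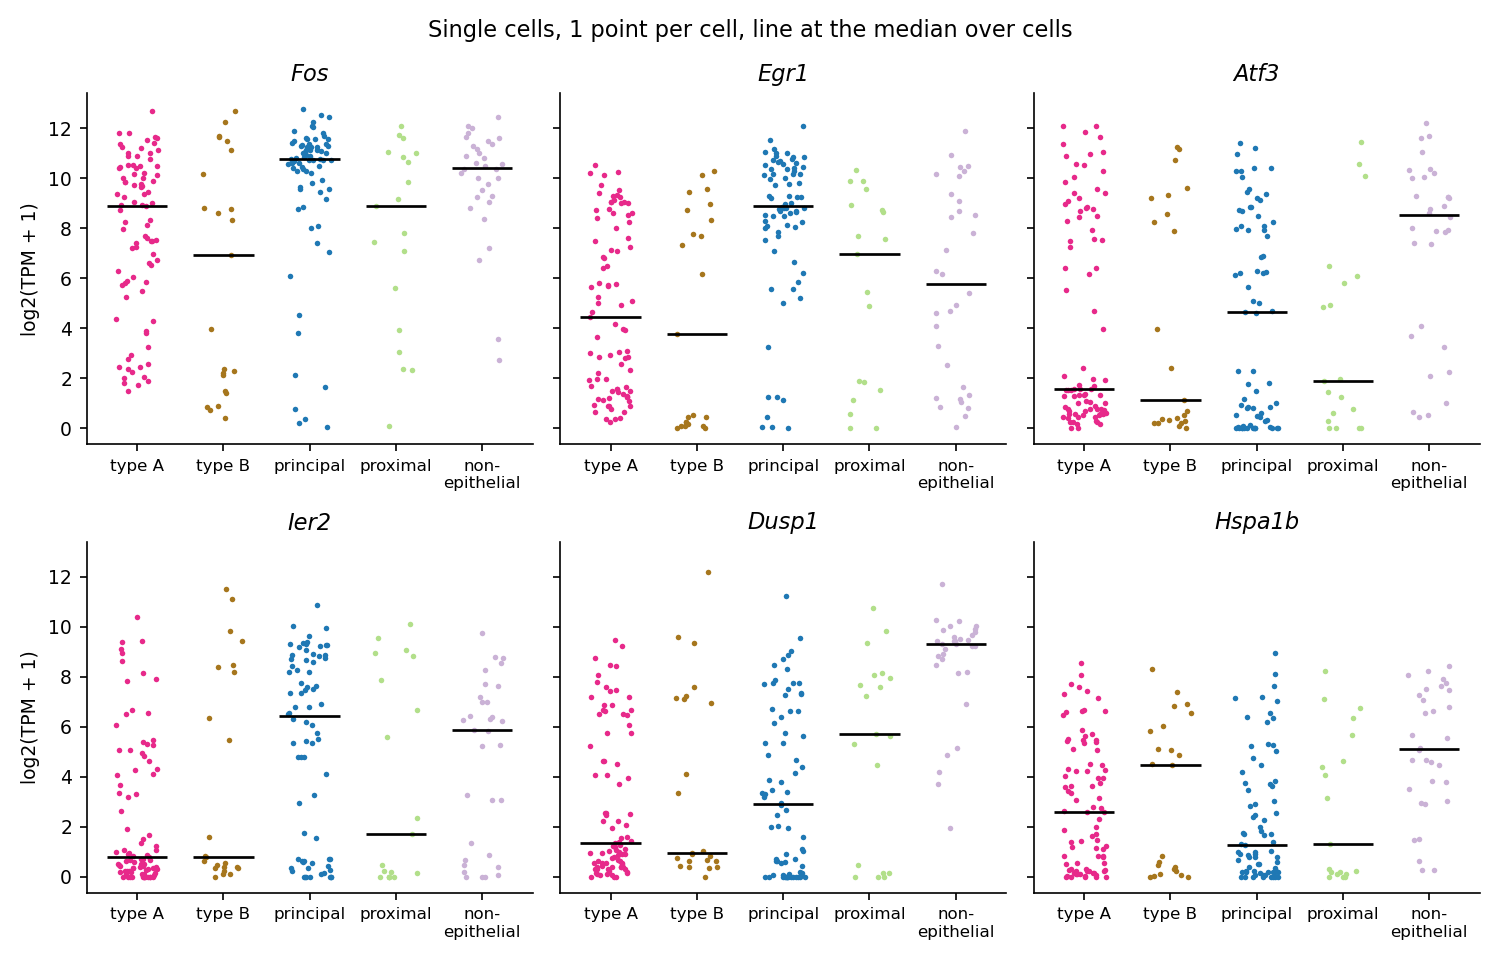
Level of Fos, Egr1, Atf3, Ier2, Dusp1 and Hspa1b in single cells as log2(TPM + 1), 1 point per cell in 87 type A, 23 type B, 74 principal, 19 proximal tubule and 32 non-epithelial cells, with a line at the median. Fos leaves an empty band between 14.6 and 120 TPM in type B cells, and Dusp1 is concentrated at high values in non-epithelial cells.

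The genes most like the members differed between cells and tubules. Over 235 cells, after each type's mean was removed, the 4 non-members whose level best followed the members' mean were Zfp36 (rho 0.67), Btg2 (0.64), Klf6 (0.60) and Ppp1r15a (0.56), among 3024 genes found in at least 30% of cells. All 4 are known as early response or stress genes, and all 4 are on the list of other early response genes. Over the 19 tubules, after removal of segment means, the 5 that followed it best were Pde4d (0.90), a cyclic AMP phosphodiesterase gene, Lztfl1 (0.86), Prss36 (0.82), Prps1 (0.81) and Zfand5 (0.81), among 7946 genes. None of these 5 is on the early response list. Of that list, 11 genes were measured widely enough in cells and had a median rho of 0.51, against 0.11 over all genes; 15 were in tubules and had a median of 0.28, against 0.08. The 16 other heat shock and chaperone genes measured in cells had a median rho of 0.17 and the 18 in tubules -0.04.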

How the data were processed

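The deposited TPM tables (235 single cells, 4 bulk samples, 19 tubules) hold transcript levels, scaled by the authors so that every sample has the same sum; the unit of the tubule table was read from its column sums. Per the submitters' processing notes, STAR 2.5.1b, RSEM 1.2.31, Seurat and GRCm38.p5 were used. Read counts per gene and RPKM were deposited for the GFP samples, with HTSeq, RefSeq and mm10 named in the file headers or names; 66.7% to 72.8% of listed reads had no gene and stayed out. No per-sample column was left unused (0).

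The members and gene lists were chosen with earlier results of these data known. Percentiles are mid-ranks. Counts were tested with edgeR 4.0.16 (TMM, filterByExpr, quasi-likelihood), TPM with limma 3.58.1 on log2(TPM + 1) with a variance trend and a mean of at least 1 TPM, in R 4.3.3; correlations used 100000 permutations, two-sided. Only the groups compared entered a fit. Fits were tested on simulated data. Genes of the lists are named where called, not overlapping and at a mean of at least 10, up to 3 per direction. By rule the 5 genes most like the members were to be named; 1 of those over cells is not reported here. P-values measure the spread between these samples, which may be technical. RPKM headers name a first and a second experiment but no replicate number. The replicate block therefore assumes that GFP samples with the same replicate number share an experiment. The r of deviations was 0.19 under this pairing, and whether the pairing holds was not tested. The replicate block changed no member's call.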

Additional observations from a re-analysis of the deposited data

Results flagged for a closer look

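Among the 10 members, each searched in the 8 cTAL tubules for a value far from the rest, 4 had one. The rule flags about 1 in 20 by chance only where values follow a normal distribution. These TPM values are skewed (Atf3 in cTAL: mean 13.0, SD 32.5, median 0.035), so the 4 cannot be set against that rate. Fos was at 85.2 TPM in m7_cTAL1, with the next tubule at 39.4 TPM. Egr1 was at 24.5 TPM in m2_cTAL1, with the next at 11.0 TPM, and Atf3 was at 92.8 TPM in the same tubule, with the next at 11.3 TPM. Ier2 was at 0.08 TPM in m3_cTAL1, the tubule with the fewest genes at 1 TPM among the cTAL (8094), with the next tubule at 19.7 TPM.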

How the results depend on the processing

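All 10 members were lower in c-Kit than in DBA cells under every alternative run (pseudocounts of 0.1 and 5, other filters, quantile normalization, no variance trend, the replicate block, each sample left out, Hspa1a and Hspa1b summed); the count over all genes, 6348, was 3458 to 5701 without single samples (3458 without DBA replicate 2, 3600 without DBA replicate 1). In the GFP comparison, limma on RPKM called 1639 genes in place of 5101, and 0 members higher and 1 lower; without single samples 3616 to 4211 genes were called, with 0 to 3 members higher and 0 to 2 lower. Ier2, at 0.02, turned to -0.10 on RPKM, -0.014 with a mean of at least 50 counts, and -0.14 and -0.26 without GFP-negative replicate 2 and GFP-positive replicate 2 (range without single samples -0.26 to 0.23), and Hspa1b to -0.33 on RPKM; neither was called. In CCD against cTAL, sample weights called 4401 genes in place of 2526, and means per header prefix as a replicate block 1231. Dusp1 was then not called (0 members lower), nor without prefix m7 (0 lower). Alternatives that leave out tubules or average by prefix were chosen after seeing the data. With the prefix as a replicate block over single tubules, 2588 genes were called, with 4 members higher and 1 lower. Residuals of CCD and cTAL with 1 prefix correlated between 0.00 and 0.25. No correlation between different prefixes was computed beside them, so these values cannot decide whether tubules of 1 prefix share an animal. With the replicate block 6271 genes were called in c-Kit against DBA and 5897 in the GFP comparison, with 3 members higher and 2 lower. Quantile normalization turned the median over all genes from 0.31 to -0.03 in tubules, with 1221 genes higher and 1244 lower, and from -0.11 to 0.02 in c-Kit against DBA, with 3055 higher and 3072 lower. Ranked among all genes of each table, 3 members rather than 5 stood above all tubules in the 8 sorted samples; with the median over cells, 3 rather than 5 in the single-cell types. At 10 TPM, 4 rather than 8 members were found in at least 50% of type A cells. The share of all genes was not computed with ranks among all genes, with the median over cells or at 10 TPM. By the median in place of the mean, 0 members were highest in type A cells, 0 in type B and 5 in principal cells, in place of 1, 2 and 3. The causes were not tested. TPM keeps no depth, so low values cannot be told from 0.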
